A study of Mus musculus with 2 samples.

Results

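The Nr4a nuclear receptor genes Nr4a1, Nr4a2 and Nr4a3, 3 of the 31053 genes in the deposited matrices, were followed across bone marrow cell types of aged mice. They were taken by gene symbol, and the set was chosen by measured values in these same libraries, so the differences below are a description and carry no test. Both groups were aged C57BL/6J mice that had received a gut microbiota transplant. In FMT_young the transplanted microbiota was young and in FMT_aged it was aged, with 1 library in each group. Each library mixed flow-sorted whole marrow, lineage-negative (Lin-) cells and Lin- cKit+ cells in parts of 1, 1 and 4, so cell type shares partly reflect the sort. The age of the mice in numbers and the number of animals behind a library are not given in the sources used here. Since each group had only 1 library, no replicate check could be made, and every comparison is between these 2 libraries.

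NR4A receptors are orphan nuclear receptors, transcription factors whose activity is set mainly by how much of the protein is made and not by a known hormone. Their genes are immediate early genes, transcribed within minutes of calcium, cAMP, growth factor or antigen receptor signals without new protein synthesis, together with genes such as Fos and Egr1. In mouse marrow Nr4a1 is known for the survival of patrolling, Ly6C-low monocytes and, with Nr4a3, for restraining stem cell division and myeloid leukaemia. In T cells all members of the family are known for tolerance, exhaustion and regulatory T cell programmes, and Nr4a2 is also known for the development of midbrain dopamine neurons.

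The members lie on different chromosomes (GENCODE vM21, GRCm38). Nr4a1 (ENSMUSG00000023034) is at chr15:101254269-101274795 on the plus strand. Nr4a2 (ENSMUSG00000026826) is at chr2:57106830-57124003 on the minus strand. Nr4a3 (ENSMUSG00000028341) is at chr4:48045153-48086447 on the plus strand. All 3 had a RefSeq promoter window (GRCm38.p6), 250 bases before to 50 after the start of the gene. The stretches upstream of annotated exons are shown because cAMP and calcium signals are known to act on these genes through CREB, which binds the cAMP response element (CRE). Capitals mark the short CRE site TGACG on either strand (CGTCA when read on the other strand).
Nr4a1, chr15:101266596-101266845, plus strand: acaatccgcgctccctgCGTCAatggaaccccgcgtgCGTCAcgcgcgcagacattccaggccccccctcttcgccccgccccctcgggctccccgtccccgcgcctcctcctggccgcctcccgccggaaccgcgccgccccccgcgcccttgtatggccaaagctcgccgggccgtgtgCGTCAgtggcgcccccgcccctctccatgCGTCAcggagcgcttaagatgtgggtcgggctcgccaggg
Nr4a2, chr2:57124004-57124253, minus strand: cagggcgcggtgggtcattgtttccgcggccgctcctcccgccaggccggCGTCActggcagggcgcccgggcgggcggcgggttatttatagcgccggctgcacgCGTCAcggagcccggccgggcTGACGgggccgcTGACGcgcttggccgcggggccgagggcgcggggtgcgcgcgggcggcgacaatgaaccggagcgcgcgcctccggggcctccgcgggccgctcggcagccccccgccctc
Nr4a3, chr4:48045055-48045152, plus strand: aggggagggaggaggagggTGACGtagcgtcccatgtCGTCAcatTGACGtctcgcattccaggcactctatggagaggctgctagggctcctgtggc
The Nr4a1 stretch lies before the RefSeq start and inside an intron of a longer annotated transcript, Nr4a1-202. Each member's window of 300 bases held 4 copies of TGACG, against 1 or more in 20.8% of 32851 mouse promoter windows and 4 or more in 76 windows (0.231%). Of 43 windows of the other immediate early genes listed below, 25 (58.1%) held 1 or more and 3 held 3 or more. The printed stretches were 74.4% (Nr4a1), 80% (Nr4a2) and 61.2% (Nr4a3) G or C, and the mouse windows were not matched for this. In Nr4a1 the copies began 233, 213, 69 and 40 bases before the start. In Nr4a2 they began 200, 144, 123 and 111 bases before it, and in Nr4a3 231, 213, 205 and 147 bases before it. The last of the Nr4a3 copies lies in an annotated exon and is not printed. None of the 3 windows held the full CRE TGACGTCA (1.79% of windows hold it), the AP-1 site TGACTCA (5.2%), the CArG box of serum response factor (1.63%) or the NR4A monomer site AAAGGTCA (1.51%), searched on both strands. The Nr4a2 window held 1 MEF2 site (3.19% of windows), 167 bases before the start. The GC box GGGCGG, present in 35.7% of windows, occurred 3 times in the Nr4a1 window, 5 times in Nr4a2 and 1 time in Nr4a3. A match is a description of letters and not of a factor's binding, which was not measured here.

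Per library, 214982156 UMIs in FMT_young and 207642851 in FMT_aged were deposited. A UMI (unique molecular identifier) stands for 1 captured transcript. After the limits on UMIs, genes and mitochondrial UMIs and the removal of likely doublets, 10793 FMT_young and 10320 FMT_aged cells were kept. The median kept cell had 11013 UMIs in FMT_young and 11610 in FMT_aged, of which 2.62% and 2.95% were mitochondrial (medians). Among called cells 32 barcode sequences occurred in both libraries. Of 30 clusters, 14 marker-named classes had at least 50 cells in each library and were compared. Unnamed clusters held 18.2% of FMT_young and 12.0% of FMT_aged cells. Levels are given as CPM, the UMIs of the gene scaled to a fixed total of all UMIs in the class. Ratios divide the FMT_young level by the FMT_aged level and are printed as log2 values. Values in brackets are 95% intervals that cover counting error only and not differences between mice. The background beside each class is the share of all its genes with at least 30 UMIs whose ratio was 1 or more, a level of at least 2 times in FMT_young.

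Nr4a1, the founding member of the family, was read in every compared class. It had 6534 UMIs in 2602 kept FMT_young cells and 1311 UMIs in 865 kept FMT_aged cells. Cells of the HSC or MPP-like class, hematopoietic stem cells and multipotent progenitors by their markers, were 6.15% of FMT_young cells and 8.21% of FMT_aged cells. They held 24.5% of the gene's UMIs in FMT_young and 28.3% in FMT_aged. Monocyte progenitor-like cells held 21% and 15.5%.

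**Figure D1:**
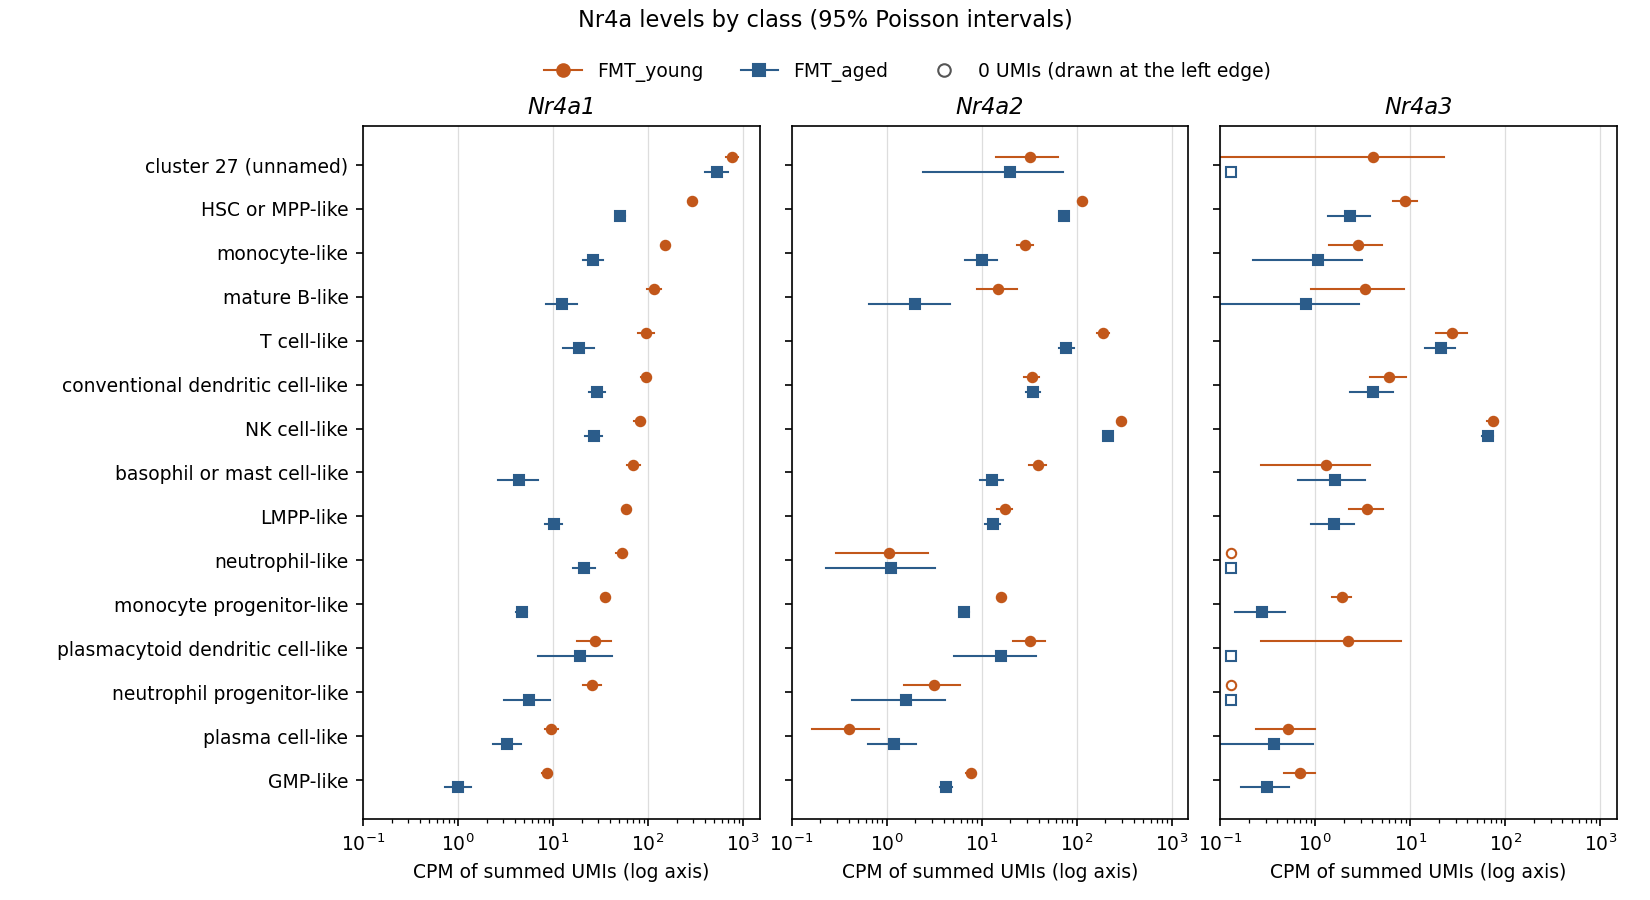
Level of Nr4a1, Nr4a2 and Nr4a3 in CPM (log axis) in 14 marker-named classes and in unnamed cluster 27, with FMT_young and FMT_aged as separate points and 95% counting intervals as bars, which are cut at 0.1 CPM. Open markers at the left edge stand for 0 UMIs. Among these 14 classes, HSC or MPP-like cells are first for Nr4a1 at 288 and 51.2 CPM and NK cell-like cells for Nr4a2 and Nr4a3, and cluster 27 lies above all 14 for Nr4a1.

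In HSC or MPP-like cells Nr4a1 had 1600 UMIs in 664 FMT_young cells and 371 UMIs in 847 FMT_aged cells. Its level was 288 CPM (274 to 303) in FMT_young and 51.2 CPM (46.1 to 56.7) in FMT_aged, a log2 ratio of 2.49 (2.33 to 2.66). The background in this class was 1.45% of 11029 genes, and by ratio Nr4a1 ranked 8th among them. At least 1 UMI was seen in 57.2% of FMT_young and 21.3% of FMT_aged cells of the class. With every cell thinned to 2000 UMIs the shares were 33.6% of 657 and 9.36% of 844 cells. Depth in the class was alike, with medians of 7423.5 UMIs per cell in FMT_young and 7570 in FMT_aged.

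The class carried the markers it was named for. Its leading genes included Hlf, Meis1, Angpt1, Mecom and Myct1, and the 13 stem cell markers summed to 3585 CPM in FMT_young and 3482 CPM in FMT_aged, with none at 0. Markers of other cell types were also present. The 8 GMP (granulocyte-monocyte progenitor) markers summed to 2623 CPM in FMT_young and 2026 CPM in FMT_aged, the 13 neutrophil markers to 539 and 212 CPM and the 11 monocyte markers to 188 and 132 CPM. Basophil or mast cell markers summed to 286 and 229 CPM. Erythroid markers summed to 667 and 691 CPM and those of lymphoid-primed multipotent progenitors to 526 and 563 CPM. Conventional dendritic cell markers summed to 514 and 522 CPM and plasmacytoid dendritic cell markers to 386 and 384 CPM. Defining genes of T cells (18.4 and 16.4 CPM over 12 genes) and NK cells (8.28 and 8.42 CPM over 10 genes) were near 0. The part of the myeloid transcripts in the Nr4a1 values was not tested.

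Nr4a1 was high in more FMT_young cells and not just in a few of them. Of the HSC or MPP-like cells, 284 in FMT_young and 667 in FMT_aged had 0 UMIs of Nr4a1. Exactly 1 UMI was found in 98 and 99 cells, 2 to 4 UMIs in 168 and 67 cells, and 5 or more in 114 (17.2%) and 14 (1.65%) cells. The highest count in a cell was 21 in FMT_young and 11 in FMT_aged. The 10% of cells with the most Nr4a1 held 47.7% of its UMIs in FMT_young and 74.4% in FMT_aged.

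**Figure D2:**
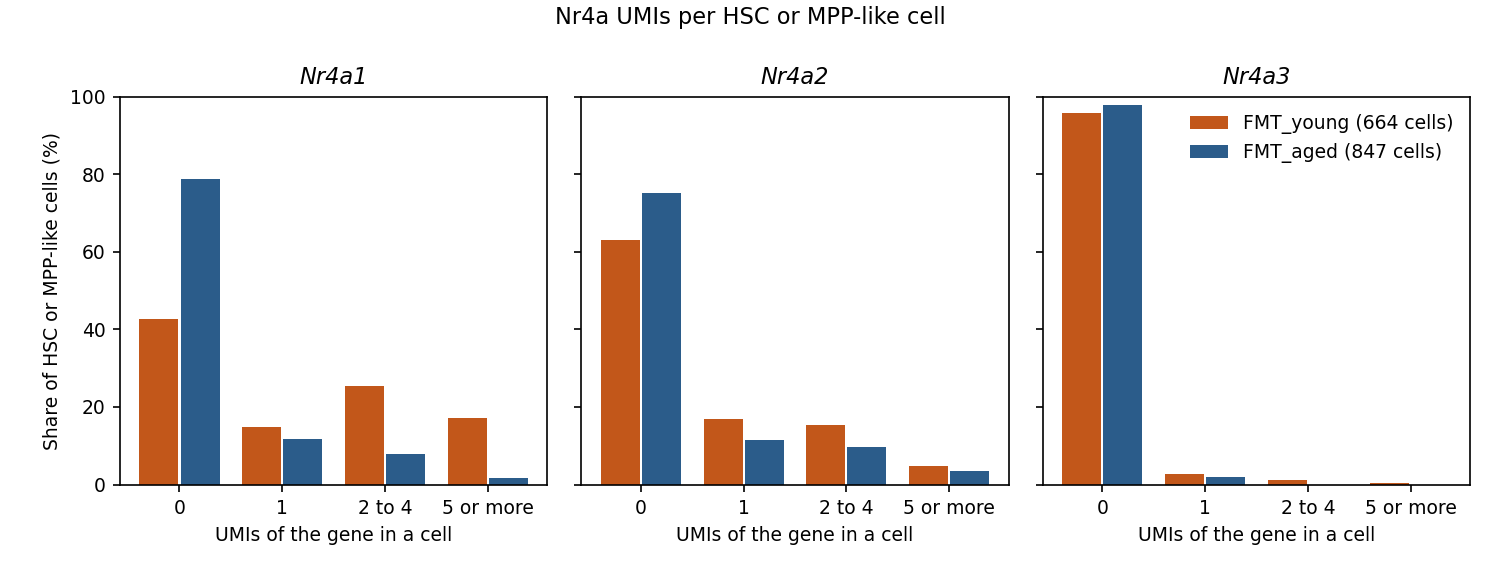
Share of HSC or MPP-like cells (percent, vertical axis) with 0, 1, 2 to 4, and 5 or more UMIs of each member, for 664 FMT_young and 847 FMT_aged cells. For Nr4a1 the bar for 5 or more UMIs stands at 17.2% in FMT_young and 1.65% in FMT_aged, while for Nr4a2 these bars stand at 4.67% and 3.54%.

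The ratio was positive in every bin of cell quality and depth examined in this class, bins that were chosen after the data were seen. By share of mitochondrial UMIs, it was 3.22 below 2% (36 FMT_young and 27 FMT_aged cells), 2.48 between 2 and 3%, 2.57 between 3 and 5% and 1.90 between 5 and 10%. By depth, it was 2.79 in cells with 1000 to 5000 UMIs, 2.34 with 5000 to 10000, 2.76 with 10000 to 20000 and 1.57 (0.58 to 2.63) above that. The class was also divided by transcripts of stem cell genes (Hlf, Mecom, Procr, Mllt3 and Fgd5) after thinning. In cells with 2 or more of them Nr4a1 stood at 419 CPM in 193 FMT_young cells and 104 CPM in 195 FMT_aged cells (2.0, 1.73 to 2.29). In cells with none of them it stood at 211 CPM in 243 FMT_young and 27.2 CPM in 331 FMT_aged cells, a ratio of 2.95. Within each library Nr4a1 was thus higher in the cells with more stem cell transcripts, beyond counting error. Cells without transcripts of the division genes Mki67, Top2a, Cdk1, Ccnb1 and Ccna2 had 307 CPM in FMT_young and 54.8 CPM in FMT_aged. Cells with at least 1 of them had 174 and 37.5 CPM (68 and 123 cells). How the class was drawn moved the value. With each library clustered on its own, the class held 1014 FMT_young and 839 FMT_aged cells, and the ratio was 1.65. Of these FMT_young cells, 348 came from an added cluster led by Adgrg1 and Cpa3, which had no counterpart in the FMT_aged class. An FMT_aged cluster of 406 cells led by Prg2, with Cpa3 and Adgrg1 also among its leading genes, was named eosinophil-like there.

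In FMT_young the order of the 14 compared classes for Nr4a1 continued with monocyte-like cells at 152 CPM (140 to 165), mature B-like cells at 117 CPM, T cell-like cells at 95.3 CPM and conventional dendritic cell-like cells at 94.2 CPM. HSC or MPP-like, monocyte-like and mature B-like cells were separated from each other beyond counting error, while mature B-like, T cell-like and conventional dendritic cell-like cells each overlapped their neighbours in the order. NK cell-like (82.1 CPM), basophil or mast cell-like (69.7), LMPP-like (58.6) and neutrophil-like cells (52.7) continued this overlapping run. LMPP stands for lymphoid-primed multipotent progenitor. Monocyte progenitor-like cells (35.0 CPM) lay apart from it, plasmacytoid dendritic cell-like (27.6) and neutrophil progenitor-like cells (25.8) overlapped each other, and plasma cell-like (9.61) and GMP-like cells (8.56) were at the low end.

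In FMT_aged HSC or MPP-like cells were also first among the 14 compared classes and separated from the next, conventional dendritic cell-like cells at 29.0 CPM (23.9 to 34.8). NK cell-like (26.7 CPM), monocyte-like (26.5), neutrophil-like (21.4), plasmacytoid dendritic cell-like (19.0), T cell-like (19.0), mature B-like (12.5) and LMPP-like cells (10.2) followed, each overlapping its neighbour. GMP-like cells were last at 1.01 CPM (0.72 to 1.36), below plasma cell-like cells at 3.30 CPM. GMP-like cells were deep, with medians of 25779 and 27952 UMIs, and 13.7% of FMT_young and 2.62% of FMT_aged cells had a UMI of Nr4a1 (1.62% and 0.138% after thinning).

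All 14 classes had a higher Nr4a1 level in FMT_young, with a median ratio of 2.41, and the interval lay above 0 in 13 of them. The ratio was 1 or more in 13 classes and 2 or more in 9. Among all genes tested, 30.6% to 56.2% had a ratio above 0, depending on the class. The classes share the same pair of libraries, so they are not independent repeats. Basophil or mast cell-like cells had the highest ratio among the classes, with 161 UMIs (69.7 CPM) in 250 FMT_young cells and 19 UMIs (4.41 CPM) in 410 FMT_aged cells (3.98, 3.29 to 4.75; background 1.87%). With classes assigned by the highest marker score of each cell this ratio was 2.46. Mature B-like cells followed with 140 and 31 UMIs (3.23, 2.66 to 3.84; background 2.28%), a ratio that was 4.82 at a mitochondrial limit of 5%.

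Among progenitor classes, Nr4a1 ratios ran from 2.21 to 3.09. GMP-like cells had 381 UMIs in FMT_young and 42 in FMT_aged (3.09, 2.63 to 3.59; background 1.62%). Monocyte progenitor-like cells had 1370 and 203 UMIs (2.90, 2.69 to 3.12; background 1.68%), and LMPP-like cells 419 and 103 UMIs (2.53, 2.21 to 2.85; background 0.948%). Neutrophil progenitor-like cells had 81 and 14 UMIs (2.21, 1.38 to 3.15; background 2.20%). After thinning to 2000 UMIs, a UMI of Nr4a1 was left in 5.99% of FMT_young and 1.28% of FMT_aged monocyte progenitor-like cells.

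Among mature cells, monocyte-like cells had 591 UMIs in FMT_young and 74 in FMT_aged (2.52, 2.17 to 2.89; background 1.77%). A UMI was seen in 51.3% of FMT_young and 17.6% of FMT_aged monocyte-like cells. T cell-like cells had 103 and 29 UMIs (2.33, 1.72 to 2.98; background 1.43%), and conventional dendritic cell-like cells 347 and 114 UMIs (1.70, 1.39 to 2.02; background 2.29%). NK cell-like cells had 233 and 94 UMIs (1.62, 1.27 to 1.98; background 1.26%). Neutrophil-like cells had 197 and 58 UMIs (1.30, 0.87 to 1.75; background 1.46%), the lowest ratio among classes whose interval lay above 0.

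Plasma cell-like and plasmacytoid dendritic cell-like values were the least firm. Plasma cell-like cells had 166 and 36 UMIs (1.54, 1.01 to 2.10; background 2.25%), but 913 of the 1141 FMT_young cells lay in a cluster with 3 FMT_aged cells, and 323 of the 714 FMT_aged cells in one with 4 FMT_young cells. In the plasma cluster shared by both libraries, led by the IgA gene Igha, Nr4a1 had 25 UMIs in 224 FMT_young cells and 18 in 388 FMT_aged cells (1.33, 0.40 to 2.29). Plasmacytoid dendritic cell-like cells had 25 and 6 UMIs (0.54, -0.78 to 2.11; background 3.70%), of which 5 in each library came from 1 cell. Without that cell in each library the ratio was 2.80. The 6 FMT_aged UMIs lay in only 2 cells, so this value rests on very few of them.

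**Figure D3:**
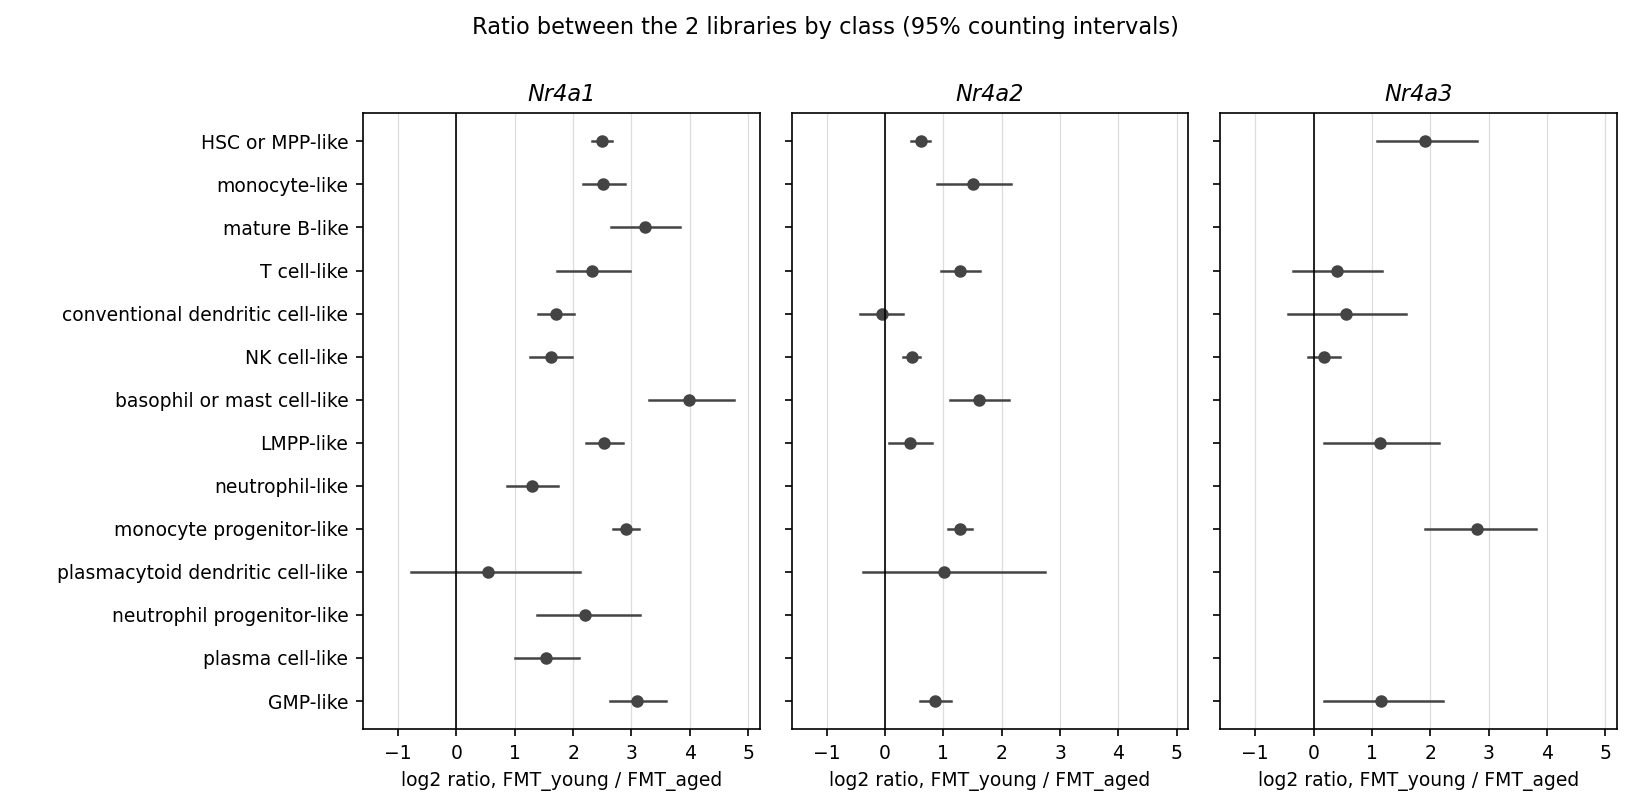
Log2 ratio of FMT_young over FMT_aged (horizontal axis) for each member in each named class whose libraries sum to 30 or more UMIs; bars are 95% counting intervals and the line marks 0. Nr4a1 lies right of 0 in 14 of 14 classes, Nr4a2 in 9 of 10 and Nr4a3 in 7 of 7, with the Nr4a1 points between 0.54 and 3.98.

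The highest Nr4a1 level of any cluster was in an unnamed one, cluster 27, with 63 FMT_young and 40 FMT_aged cells. It was led by Gngt2, Ear2, Ace, Clec4a3 and Adgre4 and stayed unnamed because none of its 10 leading genes was in the monocyte list. Nr4a1 had 189 UMIs in FMT_young and 53 in FMT_aged, or 769 CPM (663 to 887) and 526 CPM (394 to 688), a ratio of 0.55 (0.10 to 1.02). A UMI was seen in 87.3% of FMT_young and 57.5% of FMT_aged cells, and after thinning in 71.4% of 42 and 65.2% of 23 cells. The 8 patrolling monocyte markers, among them Treml4, Ace, Eno3 and Cd300e, summed to 3507 CPM in FMT_young and 4138 CPM in FMT_aged here, against 2282 and 2237 CPM in macrophage-like cells and 347 and 370 CPM in monocyte-like cells. Of these markers Cd300e was higher in macrophage-like cells, at 461 and 309 CPM, than in cluster 27, at 216 and 218 CPM. Pou2f2 was likewise higher in macrophage-like cells, at 1127 and 1234 CPM, than in cluster 27, at 936 and 903 CPM. Of the other members, Nr4a2 had 8 and 2 UMIs and Nr4a3 1 and 0 UMIs in this cluster. Macrophage-like cells, led by C1q genes and present as 104 FMT_young and 29 FMT_aged cells, had 296 and 174 CPM of Nr4a1 (0.77, 0.06 to 1.56).

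Nr4a2, also called Nurr1, was a transcript of NK cells, T cells and stem cells. It had 3392 UMIs in 1730 kept FMT_young cells and 2383 UMIs in 1319 kept FMT_aged cells. NK cell-like cells held 24.4% of these UMIs in FMT_young and 31.2% in FMT_aged, although they made up 6.07% and 8.91% of the kept cells. HSC or MPP-like cells held 18.5% and 22.5%, and monocyte progenitor-like cells 18.5% and 12.0%.

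NK cell-like cells, whose leading genes were Xcl1, Klra8, Ccl5 and Il2rb, had 826 UMIs of Nr4a2 in 655 FMT_young cells and 744 in 919 FMT_aged cells. The level was 291 CPM (272 to 312) in FMT_young and 211 CPM (197 to 227) in FMT_aged, a ratio of 0.46 (0.32 to 0.61). A UMI was seen in 54.2% of FMT_young and 39.7% of FMT_aged NK cell-like cells, and after thinning in 39.1% and 27.6%. T cell-like cells came next, with 206 UMIs (191 CPM) in FMT_young and 119 UMIs (77.8 CPM) in FMT_aged, a ratio of 1.29 (0.96 to 1.63). HSC or MPP-like cells had 626 UMIs in FMT_young and 535 in FMT_aged, levels of 113 CPM (104 to 122) and 73.8 CPM (67.7 to 80.3).

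In FMT_young these 3 classes were separated from one another and from the rest of the order. In FMT_aged NK cell-like cells stood apart, T cell-like and HSC or MPP-like cells overlapped, and HSC or MPP-like cells lay above conventional dendritic cell-like cells at 35.1 CPM. At the low end were neutrophil-like cells (1.07 and 1.11 CPM) and plasma cell-like cells (0.405 and 1.19 CPM). Plasma cell-like cells had a UMI of Nr4a2 in 0.614% of FMT_young and 1.12% of FMT_aged cells at medians of 13911 and 14418 UMIs per cell. NK cell-like cells were shallower, with medians of 3919 and 3549 UMIs, so their shares lie far above this low end despite fewer UMIs per cell.

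The Nr4a2 ratio in HSC or MPP-like cells was 0.61 (0.44 to 0.78), rank 389 of 11029, and its direction was reversed under 1 of 14 alternatives. That was separate clustering of each library, where the ratio was -0.26. There the class gained a cluster of 348 FMT_young cells led by Adgrg1 and Cpa3. An FMT_aged cluster with both genes among its leading genes was named eosinophil-like and stayed outside the class. With cells thinned to 2000 UMIs the ratio was 0.87. Counts of 5 or more UMIs were found in 31 FMT_young cells (4.67%) and 30 FMT_aged cells (3.54%), so the libraries were alike at the top of the range. They differed in the share of cells with any UMI of Nr4a2, 37.0% of 664 FMT_young and 24.8% of 847 FMT_aged cells. None was found in 418 and 637 cells, 1 UMI in 113 and 98 and 2 to 4 UMIs in 102 and 82. In cells with 2 or more stem cell transcripts Nr4a2 stood at 192 CPM in FMT_young and 161 CPM in FMT_aged (0.25, -0.02 to 0.53). In cells with no such transcript it stood at 75.2 and 38.6 CPM, a ratio of 0.96.

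Of 14 classes, 10 had at least 30 UMIs of Nr4a2, and the level was higher in FMT_young in 9 of them. The interval lay above 0 in 8, and the ratio was 1 or more in 5. Among all genes tested in these 10 classes, 30.6% to 56.2% had a ratio above 0, depending on the class. From 0.948% to 3.70% of them had a ratio of 1 or more. Basophil or mast cell-like cells had 90 and 55 UMIs (1.61, 1.11 to 2.12), or a ratio of 0.68 with classes by marker score. Monocyte-like cells had 111 and 28 UMIs (1.51, 0.90 to 2.16), and monocyte progenitor-like cells 626 and 285 UMIs (1.29, 1.08 to 1.49). GMP-like cells had 342 and 177 UMIs (0.86, 0.59 to 1.13), a ratio that was 0.10 after thinning. LMPP-like cells had 126 and 132 UMIs (0.44, 0.07 to 0.80). Conventional dendritic cell-like cells had 124 and 138 UMIs, and their interval included 0 (-0.06, -0.42 to 0.30). Plasmacytoid dendritic cell-like cells had 29 and 5 UMIs (1.01, -0.37 to 2.74). Without the cell with the most UMIs in each library this became 2.94, but the 5 FMT_aged UMIs lay in only 2 cells. The other 4 classes had fewer UMIs, with 18 and 5 in mature B-like, 10 and 4 in neutrophil progenitor-like, 7 and 13 in plasma cell-like and 4 and 3 in neutrophil-like cells.

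**Figure D4:**
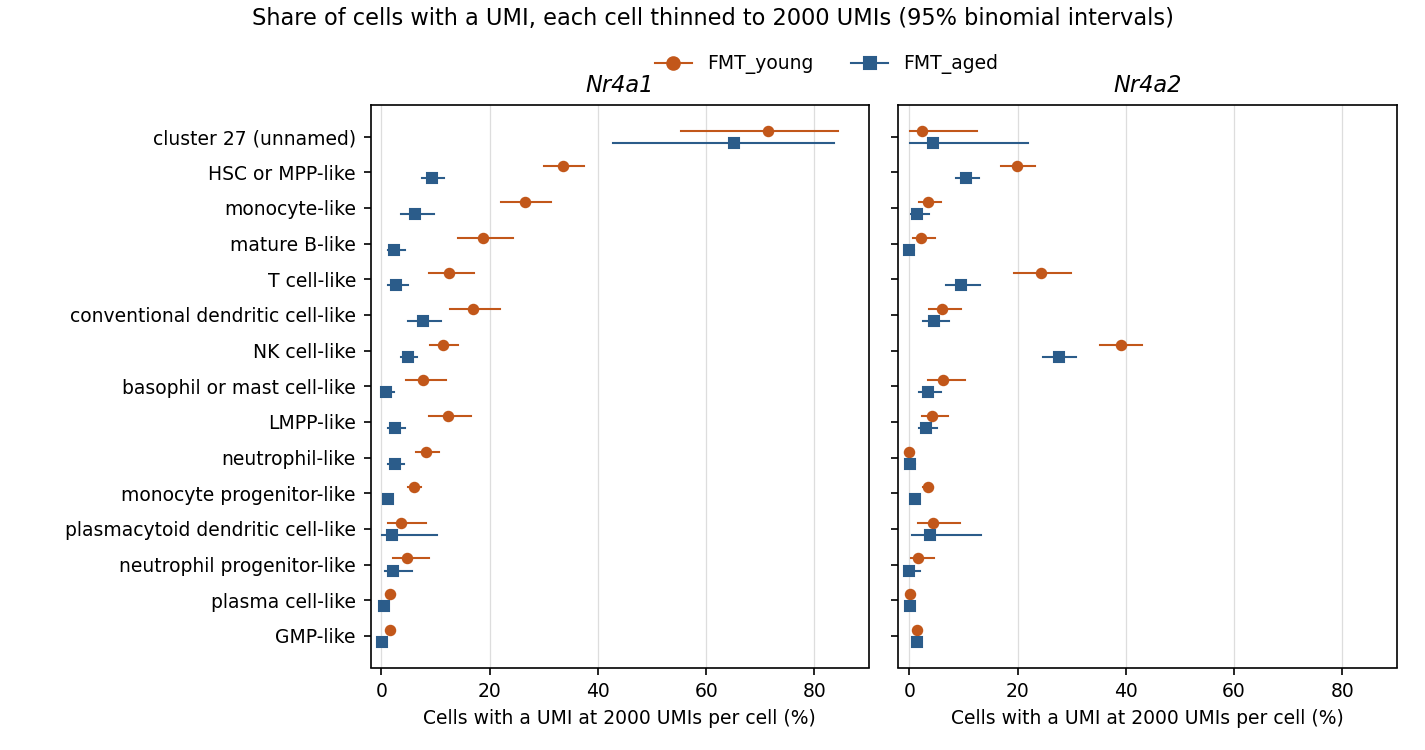
Share of cells (percent) with at least 1 UMI of Nr4a1 or Nr4a2 after every cell was thinned to 2000 UMIs, by class, for FMT_young and FMT_aged with 95% counting intervals. In HSC or MPP-like cells the Nr4a1 share was 33.6% in FMT_young and 9.36% in FMT_aged, and in NK cell-like cells the Nr4a2 share was 39.1% and 27.6%.

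The T cell-like class held a pair of clusters with different Nr4a1 and Nr4a2 ratios. Cluster 13, which had Cd8a among its leading genes, had 241 FMT_young and 381 FMT_aged cells. Nr4a1 stood there at 66.2 CPM (48 UMIs) in FMT_young and 4.51 CPM (5 UMIs) in FMT_aged, a ratio of 3.88 (2.55 to 5.56). Nr4a2 in cluster 13 stood at 247 and 83.9 CPM (1.56, 1.19 to 1.94). Cluster 22, led by Trac, Maf, Izumo1r and Tnfrsf4 and holding the regulatory T cell factor gene Ikzf2 among its leading genes, had 144 and 173 cells. Nr4a1 stood there at 154 and 56.9 CPM (1.44, 0.72 to 2.20), and Nr4a2 at 75.8 and 61.6 CPM (0.30). Nr4a3 stood at 23.5 and 10.8 CPM in cluster 13 (17 and 12 UMIs; 1.12, -0.04 to 2.31). In cluster 22 it stood at 36.5 and 47.4 CPM (13 and 20 UMIs; -0.38, -1.51 to 0.70). Both Nr4a3 intervals include 0 and they overlap. The intervals of the Nr4a1 ratios do not overlap between the clusters, with Nr4a1 at 5 UMIs in FMT_aged cells of cluster 13.

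Nr4a3, also called NOR1, was the member with the fewest UMIs, and NK cell-like cells held the largest part of them among the named classes. It had 506 UMIs in 341 kept FMT_young cells and 363 UMIs in 280 kept FMT_aged cells. NK cell-like cells held 41.5% of these in FMT_young and 63.1% in FMT_aged. Their level was 74.0 CPM (64.4 to 84.7) in FMT_young and 65.1 CPM (56.9 to 74.1) in FMT_aged, from 210 and 229 UMIs (0.19, -0.09 to 0.46). A UMI was seen in 19.5% of FMT_young and 18.5% of FMT_aged NK cell-like cells. T cell-like cells were next at 27.8 and 20.9 CPM (30 and 32 UMIs; 0.41, -0.36 to 1.17). NK cell-like cells were above T cell-like cells, and these above all other compared classes, beyond counting error in both libraries.

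In progenitor classes Nr4a3 was read at low levels. HSC or MPP-like cells had 49 UMIs (8.82 CPM) in FMT_young and 17 UMIs (2.35 CPM) in FMT_aged, a ratio of 1.91 (1.09 to 2.80) and rank 23 of 11029. Those UMIs came from 28 FMT_young and 17 FMT_aged cells, and no FMT_aged cell had more than 1, while 1 FMT_young cell had 8. After thinning the ratio was 0.72. Monocyte progenitor-like cells had 75 and 12 UMIs (1.92 and 0.276 CPM; 2.79, 1.90 to 3.81). GMP-like cells had 31 and 13 UMIs (1.16, 0.19 to 2.22) and LMPP-like cells 25 and 16 UMIs (1.15, 0.19 to 2.15). Conventional dendritic cell-like cells had 22 and 16 UMIs (0.56, -0.44 to 1.58). In all 7 classes with at least 30 UMIs the level was higher in FMT_young, and in 4 of them the interval lay above 0. Among all genes tested in these 7 classes, 30.6% to 56.2% had a ratio above 0, depending on the class. The other classes had at most 11 UMIs of Nr4a3 in a library, the 11 being in FMT_young monocyte-like cells. No UMI of Nr4a3 was found in 744 FMT_young or 591 FMT_aged neutrophil-like cells, which allows shares of up to 0.403% and 0.508% of cells with a UMI.

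UMIs of different members were read together in only part of the cells. Thinning lowers detection, so a cell that holds transcripts of both genes can lack a UMI of either. Whether the members share the same cells was therefore not tested. After thinning, Nr4a1 was seen in 38.2% of the 131 FMT_young HSC or MPP-like cells with a UMI of Nr4a2 and in 32.5% of the 526 without one. In FMT_aged it was seen in 29.2% of 89 such cells with Nr4a2 and in 7.02% of 755 without. Egr1, an immediate early zinc finger factor, was set beside Nr4a1 in the same class. There Nr4a1 was seen in 35.7% of 608 FMT_young cells with Egr1 and 8.16% of 49 without. In FMT_aged it was seen in 11.9% of 495 with Egr1 and 5.73% of 349 without. This did not hold in every class. In FMT_young GMP-like cells the Nr4a1 shares were 0.828% of 604 with Egr1 and 2.07% of 1065 without, and in NK cell-like cells 12.8% of 188 and 10.8% of 446. Across the 14 classes, Pearson's r of log2(CPM + 1) between Nr4a2 and Nr4a3 was 0.89 in FMT_young and 0.85 in FMT_aged. It was 0.65 and 0.59 between Nr4a1 and Nr4a2, and 0.55 and 0.43 between Nr4a1 and Nr4a3. These values describe 14 classes that share a library and its free RNA.

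Free RNA, read in barcodes with under 100 UMIs, held the members too. Nr4a1 stood there at 81.9 CPM in FMT_young and 22.2 CPM in FMT_aged, Nr4a2 at 28.4 and 15.6 CPM and Nr4a3 at 5.36 and 3.38 CPM. Levels below these occur in many classes, so a few UMIs in a deep class need not come from its cells. With this profile subtracted, the Nr4a1 ratio in HSC or MPP-like cells was 2.50.

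Immediate early genes as a group were higher in FMT_young in the same stem cells. All 42 listed genes besides the members were tested in HSC or MPP-like cells. All had a ratio above 0, against 30.6% of the 11029 genes tested, and 37 intervals lay above 0. The median was 0.88, beside -0.13 for all genes, and 19 had a ratio of 1 or more. Klf2, a Krüppel-like factor of quiescent lymphocytes, stood at 1765 CPM in FMT_young and 262 CPM in FMT_aged (2.75, 2.68 to 2.83). The antiproliferative gene Btg2 stood at 710.0 and 226 CPM (1.65), and the ERK phosphatase gene Dusp5 at 147 and 44.7 CPM (1.71). Nr4a1 at 2.49 thus lay below Klf2 alone among the 45 genes formed by this list and the members. Across the 14 classes the list's median ran from 0.33 in NK cell-like cells to 1.11 in basophil or mast cell-like cells and lay above the median of all genes in every class. The whole list is known to respond to cell handling as well as to signals in the animal, and the part of tissue handling was not tested.

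**Figure D5:**
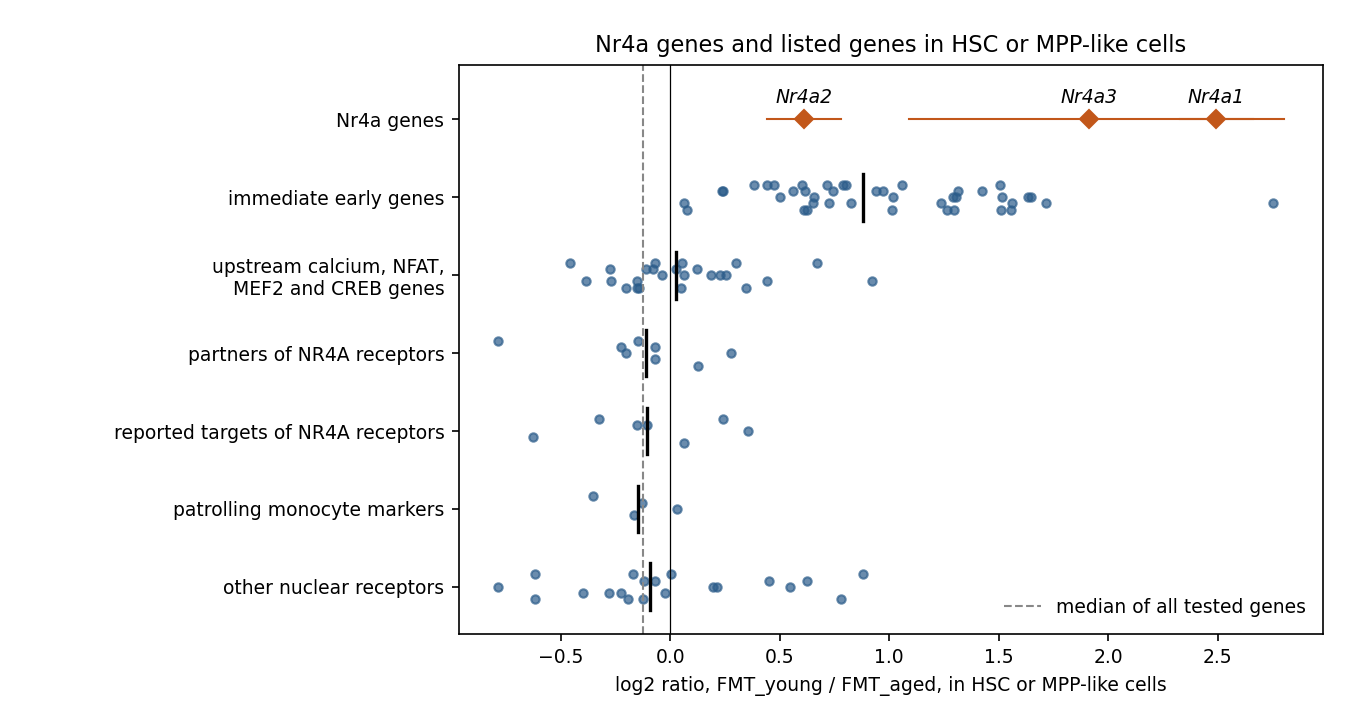
Log2 ratio of FMT_young over FMT_aged in HSC or MPP-like cells for the members and for the genes of 6 lists, 1 point per gene with at least 30 UMIs; black bars are list medians and the dashed line is the median of all genes, -0.13. All 42 immediate early genes lie above 0, and the other lists lie around the dashed line.

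A further list held genes known to act upstream of the family. Of its 26 genes of calcineurin, NFAT, MEF2, CREB and serum response factor signalling, 25 were tested, with 13 above and 12 below 0, against 30.6% of all genes tested above 0. Their median was 0.02, beside -0.13 for all genes, and none had a ratio of 1 or more. The MEF2 factor gene Mef2c stood at 441 CPM in FMT_young and 325 CPM in FMT_aged (0.44, 0.36 to 0.52). Nfatc2, a calcineurin-dependent factor, stood at 28.3 and 17.8 CPM (0.67, 0.32 to 1.02) and Mef2d, whose protein controls Nr4a1 in stimulated T cells, at 80.3 and 63.2 CPM (0.35). The CREB coactivator gene Crtc2 was at 19.99 and 27.5 CPM (-0.46, -0.81 to -0.12), the calcium-dependent kinase gene Camk2g at 38.9 and 50.8 CPM (-0.38) and Creb1 at 61.2 and 73.8 CPM (-0.27).

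Partners and reported targets of the receptors lay near the median of all genes. Of all genes tested in HSC or MPP-like cells, 30.6% lay above 0, with a median of -0.13. Of 9 partners 8 were tested, with 2 above and 6 below 0 and a median of -0.11. Rela, the NF-kB subunit, had 65.9 and 54.4 CPM (0.28), Bcl2, whose protein binds NR4A1 at mitochondria, 81.2 and 93.4 CPM (-0.20), and the heterodimer partner gene Rxrb 52.2 and 61.1 CPM (-0.23). Of 12 reported targets 7 were tested, with 3 above and 4 below 0, beside the same 30.6%, and a median of -0.11. Cebpa, the myeloid factor gene, stood at 48.3 and 37.8 CPM (0.35, 0.10 to 0.60) and the NF-kB inhibitor gene Nfkbia, which is also on the immediate early list, at 172 and 146 CPM (0.24). Myc, also among the targets above 0, is on the immediate early list too. The cell cycle inhibitor gene Cdkn2c stood at 12.2 and 18.9 CPM (-0.63, -1.07 to -0.20) and Tox at 27.4 and 34.4 CPM (-0.33). In T cell-like cells 9 of the 12 reported targets were tested, with 4 above and 5 below 0, against 37.6% of all genes tested above 0. Their median was -0.00, beside -0.10 for all genes in that class. The interval lay above 0 for 2 of these targets and below 0 for 1. The latter was the exhaustion gene Pdcd1, named after values were seen, with 73.1 CPM in FMT_young and 110 CPM in FMT_aged (-0.59, -0.99 to -0.19). Pdcd1 is 1 of the 9 tested targets and does not stand for the list.

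Of 25 other nuclear receptor genes 20 were tested in HSC or MPP-like cells, with 8 above and 12 below 0. Of all genes tested in the class, 30.6% lay above 0. The list's median was -0.09, beside -0.13 for all genes. No listed ratio was 1 or more in either direction, against 1.45% of all genes higher and 1.08% lower in FMT_young. Rora, a retinoid-related orphan receptor, had 38.7 CPM in FMT_young and 25.1 CPM in FMT_aged (0.62, 0.33 to 0.92), and the circadian repressor gene Nr1d2 had 27.2 and 19.9 CPM (0.45). Nr2c2, a testicular orphan receptor, had 67.0 and 76.7 CPM (-0.20). Of the 8 patrolling monocyte markers 4 were tested in this class, with 1 above and 3 below 0, beside the same 30.6% of all genes above 0.

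The genes whose class pattern was most like each member were ranked by the smaller of the r values in the libraries, over 8702 genes and 14 classes. For Nr4a1 these were Tuba1a (0.86 in FMT_young and 0.83 in FMT_aged), Klf6 (0.86 and 0.82), Smad4 (0.81 and 0.89), Map4k4 (0.80 and 0.83) and Prkx (0.80 and 0.80). For Nr4a2 they were Slc12a7 (0.95 and 0.93), Frmd4b (0.91 and 0.92), Coq10b (0.91 and 0.95), Prkch (0.95 and 0.90) and Plekha5 (0.90 and 0.91). For Nr4a3 they were Coq10b (0.94 and 0.93), AW112010 (0.93 and 0.92), the NK receptor gene Klrb1c (0.90 and 0.92), Tcf7 (0.89 and 0.89) and Myo6 (0.88 and 0.94). Klrb1c stood in NK cell-like cells at 512 CPM in FMT_young and 654 CPM in FMT_aged. With Spearman's rho in place of Pearson's r, 1, 2 and 0 of the 5 genes for Nr4a1, Nr4a2 and Nr4a3 were kept.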

How the data were processed

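Single-cell transcripts were counted in 2 libraries, 1 per group. The authors deposited raw counts of UMIs for every gene in every barcode. These came from Cell Ranger 3.1.0 per the file headers, run with mm10 per the submitters' processing notes, and were not normalized. The other deposited files name the 31053 genes and 6794880 barcodes of each library and are of unit other, since they carry no measured value.

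Barcodes passed as cells when they had 1000 or more UMIs, 500 or more genes and no more than 10% mitochondrial UMIs, which gave 11932 FMT_young and 11351 FMT_aged cells. A reimplementation of the Scrublet score removed the highest-scoring 0.8% per 1000 cells as likely doublets, 1139 and 1031 cells. Cells were scaled to 10000 counts and clustered together on 2000 variable genes with 40 principal components, 20 neighbours and the Leiden method at resolution 1. The members and 42 immediate early genes, 45 genes in all, were kept out of the clustering genes. Clusters were named from 19 marker lists. A name needed 3 markers present in 10% of cells and 1.5 times higher than elsewhere, and 1 or more own markers, and no more of another type, among the 10 leading genes. Monocyte and neutrophil clusters with Kit in 20% of cells were called progenitors, and plasma clusters past that limit stayed unnamed. These thresholds were set after the clusters had been seen.

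UMIs were summed per class and library and given as CPM with exact Poisson intervals. Shares of cells have exact Clopper-Pearson intervals, unthinned and with cells thinned to 2000 UMIs, and ratios have exact conditional binomial intervals. All intervals are at 95% and cover counting error only. The limit for a count of 0 is 3 cells. Class totals set the scale. TMM scaling, computed here, added 0.11 to log2 ratios in HSC or MPP-like cells, 0.19 in plasma cell-like and 0.12 in plasmacytoid dendritic cell-like cells. No test was made with 1 library per group. The members, lists and marker sets were chosen with earlier results of these data known. Named besides the members were the 5 genes most like each member, out of those with 300 or more UMIs per library and 20 CPM in a class, and up to 3 genes per list and direction whose interval lay farthest from 0 on its near side. A gene named by this rule is not reported here. Egr1, Pdcd1 and the genes that divide the HSC or MPP-like class were chosen after values were seen. The 14 alternatives are listed in the closing section. Promoter windows came from RefSeq (GRCm38.p6) and gene positions from GENCODE vM21, where all 3 members were found. Python 3.11.15, numpy 2.4.6, scipy 1.17.1, scikit-learn 1.9.0, leidenalg 0.10.2, igraph 0.11.9 and matplotlib 3.10.9 were used, and the ratio and interval computations were tested on simulated data.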

Additional observations from a re-analysis of the deposited data

Results flagged for a closer look

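Nr4a1 and Nr4a2 transcripts also differed between the libraries in barcodes that no class holds, which is why these values are listed. In barcodes over the mitochondrial limit, 1941 in FMT_young (13.9% of barcodes with at least 1000 UMIs) and 2621 in FMT_aged (18.7%), Nr4a1 stood at 55.6 CPM in FMT_young and 17.3 CPM in FMT_aged, a log2 ratio of 1.68 (1.43 to 1.94). Nr4a2 stood there at 25.6 and 15.4 CPM, a ratio of 0.73 (0.43 to 1.03). In barcodes with under 100 UMIs, which hold free RNA, the ratio was 1.88 (1.64 to 2.13) for Nr4a1 and 0.86 (0.54 to 1.19) for Nr4a2. The interval of Nr4a3 included 0 in both sets of barcodes, at 0.18 (-0.50 to 0.85) over the mitochondrial limit and 0.67 (-0.07 to 1.42) under 100 UMIs. These intervals cover counting error only, and the differences were not tested across mice.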

How the results depend on the processing

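No paired analysis was possible because each group had 1 library, and for the same reason no replicate could be left out. Results were recomputed under 14 alternatives: mitochondrial limits of 5% and 20%, at least 2000 UMIs, no doublet removal, resolution 2.0, members and immediate early genes left in the clustering genes, separate clustering, classes by marker score, free RNA subtraction, means over cells, TMM scaling, totals without immunoglobulin, ribosomal protein and mitochondrial genes, thinned cells, and removal of the cell with the most UMIs of the gene. In HSC or MPP-like cells the Nr4a1 ratio ran from 1.65 to 2.74. It was 2.74 at a mitochondrial limit of 5%, 2.68 with classes by marker score and 1.65 with each library clustered on its own. Nr4a2 ran from -0.26 to 0.87, with the opposite sign, -0.26, under separate clustering and 0.87 in thinned cells. Separate clustering kept 661 of 664 FMT_young and 818 of 847 FMT_aged cells of the class but put 1014 and 839 cells in it. In FMT_young these were a cluster of 666 cells led by Myl10 and Hlf and another of 348 cells led by Adgrg1 and Cpa3. In FMT_aged a single cluster of 839 cells led by Myl10 and Hlf made up the class. Another FMT_aged cluster, of 406 cells, was named eosinophil-like. It was led by Prg2, Prg3 and Epx and also had Cpa3, Ikzf2, Adgrg1 and Muc13 among its leading genes. The class was thus not drawn alike in the libraries, and the part of this in the changed ratios was not tested. Nr4a3 ran from 0.72, in thinned cells, to 2.34. Nr4a1 was higher in FMT_young in at least 13 classes under each alternative, and the plasmacytoid dendritic cell-like ratio was -0.17 in thinned cells. Among the other ratios and settings, 19 values moved by more than their counting interval and 368 did not. Depth limits Nr4a3, whose HSC or MPP-like value rests on 49 and 17 UMIs.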

Other observations

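Nr4a1 was also compared within clusters that make up a class. Cluster 9, neutrophil-like cells led by Stfa genes, Ltf and Mmp9, had 159 UMIs of Nr4a1 in 475 FMT_young cells and 47 in 321 FMT_aged cells (log2 ratio 1.17, 0.69 to 1.67). Cluster 16, neutrophil-like cells led by Retnlg, Il1b and Cxcr2, had 38 and 11 UMIs (1.68, 0.68 to 2.80). Among mature B-like cells, Nr4a1 stood at 102 CPM in FMT_young and 12.1 CPM in FMT_aged in cluster 18, and at 136 and 13.2 CPM in cluster 19, which was led by Ebf1, Vpreb3 and Fcmr. The intervals of the paired clusters overlapped in each library.

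In basophil or mast cell-like cells nearly all UMIs came from cluster 17, with 160 UMIs of Nr4a1 in 204 FMT_young cells and 17 in 314 FMT_aged cells. The shallow cluster 24, with 46 FMT_young and 96 FMT_aged cells, had 1 and 2 UMIs. Cluster 6, an unnamed Kit-expressing progenitor cluster with Slco3a1, Cpa3 and Muc13 among its leading genes, had 143 UMIs of Nr4a1 in 501 FMT_young cells and 29 in 655 FMT_aged cells (2.83, 2.25 to 3.46). Its Nr4a2 ratio was 0.63 (0.24 to 1.01).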
